A study of Homo sapiens with 4 samples.

Results

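The 10 genes described here encode the cyclin-dependent kinases that phosphorylate RNA polymerase II, their partner subunits and the inhibitor HEXIM1. They were chosen by gene symbol, and each of CDK7, CCNH, MNAT1, CDK9, CCNT1, CCNT2, HEXIM1, CDK12, CDK13 and CCNK matched 1 of the 61806 genes in the deposited count table. RNA was taken from MDA-MB-231, a human breast cancer line, and MDA-MB-435, a line labelled as melanoma, both wild type, and these are called the breast cancer line and the melanoma line below. Each line was left as a control or given CPYPP, a small molecule that was developed as an inhibitor of the DOCK2 guanine nucleotide exchange factor and was used in the study to induce paraptosis, a form of cell death with cytoplasmic vacuoles. The dose was 10 µM and the time 6 h. There was 1 poly(A)-selected library for each line and treatment, so no spread between cultures could be estimated, the intervals below cover counting error only, and a test within a line compares 2 libraries and not 2 conditions. What the control cells received is not given in the labels.

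Transcription by RNA polymerase II is paced by kinases that act on the repeated tail (CTD) of its largest subunit. CDK7 with cyclin H (CCNH) and MAT1 (MNAT1) forms the CDK-activating kinase of the initiation factor TFIIH. CDK9 with cyclin T1 (CCNT1) or cyclin T2 (CCNT2) forms P-TEFb, which releases paused polymerase, and HEXIM1 holds P-TEFb inactive together with the 7SK RNA. CDK12 and CDK13, each with cyclin K (CCNK), act later in elongation and are known for the expression of long DNA repair genes. The study tested inhibitors and depletion of CDK7 and CDK9 in CPYPP-treated cells. In cultured MDA-MB-435 cells it also reported raised activity of both kinases and, by 6 h, more phosphorylation of the largest polymerase subunit. The comparison below asks whether the mRNAs of these kinases and their partners differed in the treated libraries. Kinase activity, phosphorylation and the assembly of the complexes are not measured by mRNA counts.

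Libraries held between 17196385 and 22663954 counts, and the members had between 386 and 3325 counts in every library, so all 10 passed the minimum of 10 counts. Of 7 melanocyte markers, 5 reached 10 counts in the control and 5 in the CPYPP library of MDA-MB-435, with SOX10 at 3031 and 707 counts, MLANA at 9 and 14 and TYR at 2 and 3. In MDA-MB-231 they were 2 and 3 of 7, with SOX10 at 0 and 1 and MITF at 1585 and 690. All 6 keratin and epithelial markers had at least 10 counts in both MDA-MB-231 libraries. In MDA-MB-435 3 of 6 did, with KRT18 at 5740 and 4077 counts and CDH1 at 0. The 6 fibroblast and blood markers summed to between 34 and 104 counts in a library. In cultured cells sequenced in bulk, fewer cells and less RNA in each cell cannot be told apart.

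The bases upstream of 3 members are shown because HEXIM1 is the member that passed the test over both lines, while CDK7 and CDK12 had a higher treated value in the melanoma line and an interval that included no change in the breast cancer line. MNAT1 had that pattern too, but its RefSeq start lies 19 bases from the start in the deposited table, and its window, which held no match to the motifs searched, is not printed. The windows shown are the 250 bases before the RefSeq transcription start (build GRCh38.p14, plus strand), and at these genes that start is also the start given in the deposited table. For HEXIM1 and CDK12, but not CDK7, the bases just after that start were not found in the gene's GENCODE v29 transcripts. Distances at HEXIM1 thus rest on the RefSeq start. Capitals mark matches, on either strand, to any of 7 motifs. The letters searched for stress factors were GAANNTTC for paired heat shock factor units, TGACNNNGC for the core of the NRF2 response element and TGATGNAA for that of the ATF4 response element. The general promoter motifs were the letters CACGTG of the E-box, TATAAA of the TATA box, GGGCGG of the GC box and CCAAT of the CCAAT box.
HEXIM1, chr17:45148225-45148474: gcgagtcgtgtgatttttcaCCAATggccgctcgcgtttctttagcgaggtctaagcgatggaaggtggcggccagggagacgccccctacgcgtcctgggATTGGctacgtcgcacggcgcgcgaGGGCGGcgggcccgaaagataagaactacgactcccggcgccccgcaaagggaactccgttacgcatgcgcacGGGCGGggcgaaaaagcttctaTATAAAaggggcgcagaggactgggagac
CDK7, chr5:69234545-69234794: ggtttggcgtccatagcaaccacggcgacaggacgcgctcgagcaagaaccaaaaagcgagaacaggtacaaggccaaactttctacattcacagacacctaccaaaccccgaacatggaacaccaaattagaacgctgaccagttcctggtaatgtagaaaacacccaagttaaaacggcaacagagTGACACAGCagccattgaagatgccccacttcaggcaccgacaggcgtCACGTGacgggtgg
CDK12, chr17:39461236-39461485: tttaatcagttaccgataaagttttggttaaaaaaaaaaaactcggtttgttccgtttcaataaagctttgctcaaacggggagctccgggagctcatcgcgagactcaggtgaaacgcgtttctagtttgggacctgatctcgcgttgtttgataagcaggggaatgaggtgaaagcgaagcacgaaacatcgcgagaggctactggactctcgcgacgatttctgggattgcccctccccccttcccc
The HEXIM1 window holds a TATAAA that begins 29 bases before the start, and none of the other 9 members has that motif in its window. It occurs in 10.7% of all 35116 windows of this length. HEXIM1 also holds GGGCGG at 124 and 51 bases and CCAAT at 230 and 149 bases before the start. The CDK7 window holds CACGTG, at 14 bases, and TGACNNNGC, at 62 bases, while the CDK12 window holds none of the 7. Among the 10 members GGGCGG was found in 7 windows (42.6% of all windows), CCAAT in 4 (32.0%), CACGTG in 2 (6.34%) and TGACNNNGC in 1 (10.9%). The letters of GAANNTTC were in 0 of the 10 windows (5.78% of all windows), and so were those of TGATGNAA (3.14%). A match is a run of letters and not a shown binding site, and at CDK9, CCNT1, CCNT2, CDK13, CCNK and MNAT1 the RefSeq start lies between 19 and 587 bases inside the gene's deposited boundary.

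The inhibitor HEXIM1 and the kinase CDK9 had a lower CPM, the count scaled to a common library size, in the treated library of both lines, and the cyclins T1, T2 and K and the kinase CDK13 had a higher one. A gene was called at an adjusted p under 0.05 by the exact binomial test and a fold change over 1.5, after TMM scaling, which matches the bulk of the genes between libraries. By this rule 0 of the 10 members were called in the breast cancer line, where 8.55% of the 16441 genes tested were called higher and 6.66% lower. In the melanoma line the members CCNT2 and CCNK were called higher, 2 of 10 beside 8.3% of 16527 genes, and 0 were called lower beside 11.4%. At the 2-fold limit that the study used, 0 members were called in either line, against 7.31% of genes in the breast cancer line and 9.69% in the melanoma line. These shares come from the exact binomial test and not from the study's own calls, so they are not its gene totals. Without a fold limit the adjusted exact binomial p was under 0.05 for 7 of 10 members in the breast cancer line (45.1% of all genes) and for 9 of 10 in the melanoma line (50.8%), a test that at these depths passes differences well under 1.5-fold. The median log2 fold change of the members was -0.0013 in the breast cancer line and 0.32 in the melanoma line, beside -0.01 and -0.02 over all genes tested. In the melanoma line it was 0.17 with total counts and 0.21 with upper-quartile scaling.

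**Figure D1:**
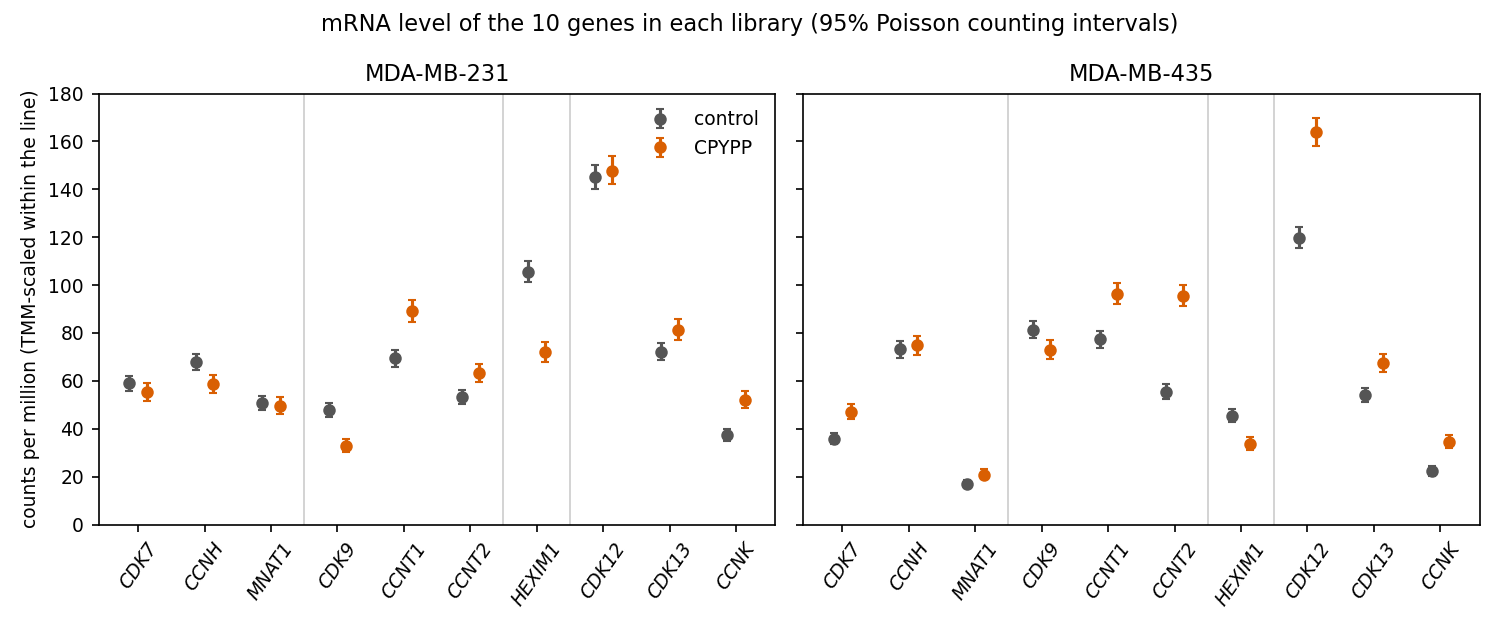
CPM (vertical axis, TMM-scaled within the line) of the 10 genes in the control (grey) and CPYPP (orange) library of each line, with 95% Poisson counting intervals and grey lines between complexes. HEXIM1 is at 106 and 72.0 CPM in MDA-MB-231 and at 45.5 and 33.8 in MDA-MB-435, while CDK12, the gene with the highest values, is at 145 and 148 in MDA-MB-231 and at 120 and 164 in MDA-MB-435.

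HEXIM1 (chr17:45148475-45152099, a gene of 3625 exon bases) had 2419 counts in the breast cancer control library and 1208 in the CPYPP library, and 1086 and 626 in those of the melanoma line. Each treated library was below its own control, and the treated breast cancer library was still above the melanoma control in CPM. The fold change was 0.682 (95% counting interval 0.636 to 0.731, adjusted p = 3.44e-27, exact binomial test) in the breast cancer line. In the melanoma line it was 0.743 (0.673 to 0.821, adjusted p = 1.34e-08, exact binomial test). At an assumed biological coefficient of variation of 0.1, HEXIM1 did not reach an adjusted p under 0.05 in either line. The values were 0.0798 in the breast cancer line and 0.191 in the melanoma line (edgeR exact test). When all 4 libraries were fitted together with a term for the line, so that the treatment was repeated only across lines, HEXIM1 fell by 0.53 on the log2 scale (SE 0.12, adjusted p = 0.0276, edgeR quasi-likelihood test). It was the single member to pass that fit, 1 of 10 called lower beside 2.85% of 16801 genes, and 0 members passed as higher beside 4.39%. An unadjusted p under 0.05 was reached by 5 members in this edgeR quasi-likelihood fit and by 4 in DESeq2, which also called 1 member lower and 0 higher. With total counts in place of TMM the HEXIM1 difference in the breast cancer line was -0.62 on the log2 scale, past the 1.5-fold limit, so the absence of a call there rests on the scaling. Its antisense neighbour HEXIM2-AS1, which overlaps it on the other strand, had between 6 and 30 counts, and the strand setting of the counting is not stated.

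HEXIM2, the paralog that can replace HEXIM1 in the 7SK particle, was at 35 and 14 counts in the breast cancer line and at 79 and 25 in the melanoma line. The second pair gave a fold change of 0.408 (0.249 to 0.647, adjusted p = 0.000141, exact binomial test) and the first one of 0.546 (0.271 to 1.04, adjusted p = 0.115, exact binomial test). HEXIM1 thus made up 98.6% and 98.9% of the counts of the 2 paralogs in the breast cancer line and 93.2% and 96.2% in the melanoma line. MEPCE, the enzyme that caps 7SK, had fold changes of 1.13 (0.959 to 1.33) and 1.23 (1.13 to 1.34).

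CDK9 (chr9:127785679-127790792), the kinase of P-TEFb, had 1093 and 552 counts in the control and CPYPP libraries of the breast cancer line and 1942 and 1350 in those of the melanoma line. It was lower with CPYPP in both lines, by a larger step in the breast cancer line. The fold change was 0.689 (0.621 to 0.764, adjusted p = 4.44e-12, exact binomial test) in the breast cancer line and 0.896 (0.836 to 0.961, adjusted p = 0.00509, exact binomial test) in the melanoma line, and the ratio of the 2 fold changes was 1.30 (1.15 to 1.47), a ratio that, here and below, is given with its counting interval and without a test. With total counts CDK9 also passed the 1.5-fold limit in the breast cancer line, at -0.61 on the log2 scale. At the assumed coefficient of variation of 0.1 it did not reach an adjusted p under 0.05 in either line (edgeR exact test). The common log2 fold change was -0.39 (SE 0.13, adjusted p = 0.122, edgeR quasi-likelihood test) and did not pass the threshold. The kinase and its inhibitor were lower together in the breast cancer line, where HEXIM1 made up 68.9% (67.3 to 70.4) of the summed HEXIM1 and CDK9 counts in the control and 68.6% (66.4 to 70.8) with CPYPP, a share that needs no scaling between libraries. In the melanoma line the share was 35.9% (34.2 to 37.6) and 31.7% (29.6 to 33.8), with intervals that do not overlap.

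The cyclin partners of CDK9 differed in the other direction from the kinase. CCNT1 (chr12:48688458-48716998) had 1589 and 1494 counts in the breast cancer line and 1846 and 1784 in the melanoma line, and the treated libraries were the smaller ones in total. Its fold changes in the lines were within counting error of each other, at 1.28 (1.19 to 1.38, adjusted p = 4.55e-11, exact binomial test) and 1.25 (1.17 to 1.33, adjusted p = 2.2e-10, exact binomial test), and the ratio between the lines was 0.971 (0.882 to 1.07). CCNT2 (chr2:134918235-134959342) had 1221 and 1062 counts in the breast cancer line and 1323 and 1770 in the melanoma line. It had nearly equal levels in the controls and was higher in the treated melanoma library than in any other. The fold change was 1.19 (1.09 to 1.29, adjusted p = 0.000194, exact binomial test) in the breast cancer line, and CCNT2 rose 1.73-fold (1.61 to 1.85, adjusted p = 3.86e-50, exact binomial test) in the melanoma line. The response ratio of 1.45 (1.30 to 1.62) was the largest among the 10 members. CCNT1 made up 56.5% and 58.5% of the cyclin T counts in the breast cancer line, but 58.3% (56.5 to 60.0) in the melanoma control and 50.2% (48.5 to 51.9) with CPYPP. The common log2 fold changes were 0.30 (SE 0.11, adjusted p = 0.165, edgeR quasi-likelihood test) for CCNT1 and 0.48 (SE 0.14, adjusted p = 0.0733, edgeR quasi-likelihood test) for CCNT2.

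**Figure D2:**
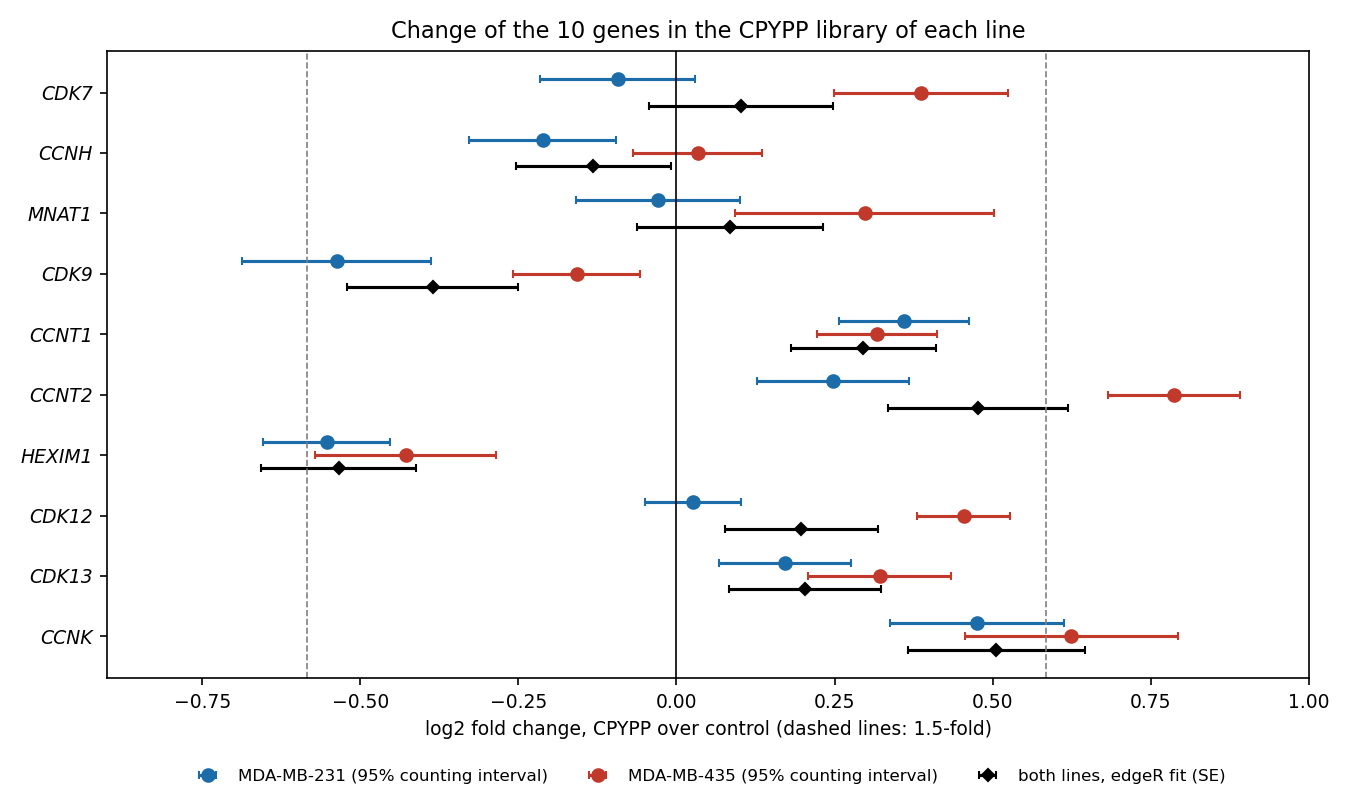
Log2 fold change, CPYPP over control, of the 10 genes in MDA-MB-231 (blue) and MDA-MB-435 (red) with 95% counting intervals, and the common effect of the edgeR fit with its SE (black). HEXIM1 and CDK9 lie left of 0 in both lines, CCNT1, CCNT2, CDK13 and CCNK lie right of 0 in both, and CCNT2 and CCNK in MDA-MB-435 lie beyond the dashed 1.5-fold line.

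Of the 3 subunits of the CDK-activating kinase, none had a common effect past the threshold, with adjusted p of 0.769 for CDK7, 0.614 for CCNH and 0.816 for MNAT1 in the edgeR quasi-likelihood fit. CDK7 (chr5:69234795-69277430), the catalytic subunit, had 1351 and 928 counts in the breast cancer line and 857 and 869 in the melanoma line. Its fold change was 0.938 (0.861 to 1.02, adjusted p = 0.221, exact binomial test) in the breast cancer line and 1.31 (1.19 to 1.44, adjusted p = 1.26e-07, exact binomial test) in the melanoma line. The controls were thus further apart than the treated libraries were, at 60.3 and 36.2 CPM scaled over the 4 libraries against 56.1 and 44.9. CCNH (chr5:87318416-87412930), its cyclin, had 1552 and 982 counts in the breast cancer line, a fold change of 0.864 (0.796 to 0.936, adjusted p = 0.00113, exact binomial test), and 1745 and 1385 in the melanoma line, one of 1.02 (0.953 to 1.10, adjusted p = 0.628, exact binomial test). With total counts the CCNH log2 value in the melanoma line turned from 0.03 to -0.12. MNAT1 (chr14:60734742-60969965), the assembly factor, had 1160 and 833 counts in the breast cancer line and 405 and 386 in the melanoma line. The MNAT1 fold changes were 0.980 (0.896 to 1.07, adjusted p = 0.766, exact binomial test) and 1.23 (1.07 to 1.42, adjusted p = 0.00985, exact binomial test). CCNH lies opposite RASA1, which overlaps it on the other strand and had 2859 and 1478 counts in the breast cancer line and 2954 and 1417 in the melanoma line, and the part of shared reads in the CCNH values was not tested.

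The balance between cyclin H and its kinase differed between the melanoma libraries. CCNH made up 67.1% (65.2 to 68.9) of the CCNH and CDK7 counts in that control and 61.4% (59.4 to 63.5) with CPYPP, while in the breast cancer line the values were 53.5% (51.6 to 55.3) and 51.4% (49.1 to 53.7), which overlap. MNAT1 made up 46.2% and 47.3% of the MNAT1 and CDK7 counts in the breast cancer line and 32.1% and 30.8% in the melanoma line, with overlapping intervals within each line and a gap between the lines.

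CDK12 (chr17:39461486-39564907) had the most counts of the 10 genes, 3325 and 2481 in the breast cancer line and 2856 and 3034 in the melanoma line. The fold change was 1.02 (0.966 to 1.07, adjusted p = 0.619, exact binomial test) in the breast cancer line, where its sign turned with total counts, and 1.37 (1.30 to 1.44, adjusted p = 2.8e-32, exact binomial test) in the melanoma line. Its response thus differed between the lines by a ratio of 1.35 (1.25 to 1.45). CDK13 (chr7:39950121-40099580), its relative, had 1655 and 1366 counts in the breast cancer line and 1287 and 1247 in the melanoma line, with fold changes of 1.13 (1.05 to 1.21) and 1.25 (1.15 to 1.35) and a ratio of 1.11 (0.998 to 1.23). The common log2 fold changes were 0.20 (SE 0.12, adjusted p = 0.409, edgeR quasi-likelihood test) for CDK12 and 0.20 (SE 0.12, adjusted p = 0.388, edgeR quasi-likelihood test) for CDK13.

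CCNK (chr14:99481169-99535044), the cyclin that both kinases need, had 858 and 874 counts in the breast cancer line and 533 and 637 in the melanoma line. Its counts were higher with CPYPP in both lines even before scaling for the smaller treated libraries. The fold change was 1.39 (1.26 to 1.53, adjusted p = 7.51e-11, exact binomial test) in the breast cancer line, and CCNK rose 1.54-fold (1.37 to 1.73, adjusted p = 1.2e-12, exact binomial test) in the melanoma line, just past the limit. That call was lost with total counts, at 0.47 on the log2 scale, and the calls of CCNK and CCNT2 were both lost when a biological coefficient of variation of 0.2 was assumed. The common log2 fold change of 0.51 (SE 0.14, adjusted p = 0.0567, edgeR quasi-likelihood test) fell short of the threshold. It passed in the edgeR quasi-likelihood test with DESeq2 size factors (adjusted p = 0.0436), without a filter on low counts (0.0371) and with at least 10 counts in every library (0.0309), and missed it by DESeq2 (0.150), with total counts (0.0587) and without the line term (1.00). CCNK made up 20.5% (19.3 to 21.8) of the CCNK and CDK12 counts in the breast cancer control and 26.1% (24.6 to 27.6) with CPYPP, and 15.7% (14.5 to 17.0) and 17.4% (16.1 to 18.6) in the melanoma line, where the intervals overlap. CCDC85C, which overlaps CCNK on the other strand, had 2163 and 1114 counts in the breast cancer line and 271 and 205 in the melanoma line. After scaling, CCDC85C had a log2 fold change of -0.51 in the breast cancer line and -0.04 in the melanoma line (adjusted p = 0.874, exact binomial test). The part of shared reads in the CCNK values was not tested. Among rows that share a member's symbol, the pseudogenes CDK7P1, CCNT2P1 and CCNHP1 had 0 counts, CCNT2-AS1 had 55 to 63 and CDK13-DT had 2 to 14.

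**Figure D3:**
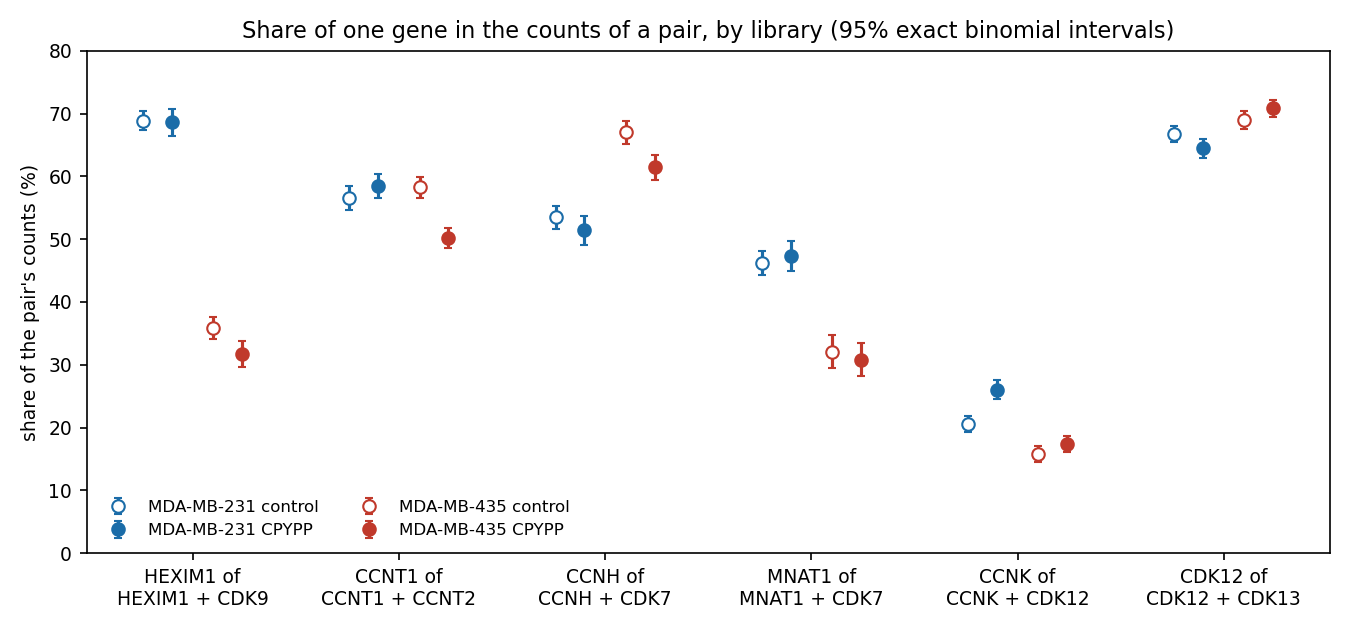
Share of the first gene in the summed counts of a pair (vertical axis, percent) in the control (open) and CPYPP (filled) library of MDA-MB-231 (blue) and MDA-MB-435 (red), with 95% exact binomial intervals. The HEXIM1 share is 68.9% and 68.6% in MDA-MB-231, the CCNT1 share is 58.3% and 50.2% in MDA-MB-435, and the CCNK share is 20.5% and 26.1% in MDA-MB-231.

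Before treatment the lines differed in MNAT1 and HEXIM1 by more than any member differed with CPYPP. MNAT1 was 3.07-fold (2.74 to 3.45, adjusted p = 2.06e-95, exact binomial test) and HEXIM1 2.39-fold (2.22 to 2.57, adjusted p = 5.49e-135, exact binomial test) higher in the breast cancer control than in the melanoma control. These 2 of 10 members passed the 2-fold limit, beside 43.1% of 18269 genes. CDK9 was 1.66-fold (1.54 to 1.79) higher in the melanoma line, and CCNK and CDK7 were 1.73-fold (1.55 to 1.93) and 1.69-fold (1.55 to 1.84) higher in the breast cancer line. CCNH and CCNT2 had intervals that include 1, with folds of the breast cancer line over the melanoma line of 0.953 (0.890 to 1.02) and 0.989 (0.914 to 1.07). In the fit over the 4 libraries, the line effect passed the threshold for MNAT1 (log2 1.47, SE 0.15), HEXIM1 (1.21, SE 0.12), CDK9 (-0.90, SE 0.14), CCNK (0.73, SE 0.14), CDK7 (0.53, SE 0.15) and CDK13 (0.40, SE 0.12), with adjusted p from 1.22e-05 to 0.0136 by the edgeR quasi-likelihood test.

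Levels of different genes were compared per kilobase of exon, in CPM per kilobase, scaled over the 4 libraries. In the breast cancer control HEXIM1 was the highest at 29.8 (28.6 to 31.0), followed by CDK7 at 25.0, CDK9 at 16.2 and MNAT1 at 13.4. CDK12 at 12.2 and CCNH at 11.6 had overlapping intervals, and CCNT1 at 9.61, CCNT2 at 6.00, CCNK at 4.66 and CDK13 at 2.98 followed in order with intervals apart. With CPYPP HEXIM1 was next at 20.2, behind CDK7 at 23.2, and CDK9 went from the third to the sixth place at 11.1. Its interval there overlapped those of its neighbours CCNT1 and CCNH. In the melanoma control CDK9 was the highest at 27.3 (26.1 to 28.5), ahead of CDK7 at 15.0, and HEXIM1 at 12.6 and CCNH at 12.3 overlapped. With CPYPP HEXIM1 took the seventh place at 8.92 (8.23 to 9.65), next to CCNT2 at 10.1 (9.60 to 10.5), which stood above it with overlapping intervals. CDK13 was last in every library, at 2.19 to 3.33. Its deposited exon length of 24780 bases is the longest of the 10, and without division by length it took the third place in both breast cancer libraries and the sixth in both of the melanoma line. The order also rests on the length used. With the longest principal transcript in GENCODE v29, which is 1378 bases for CCNH in place of 5981, CCNH was first in every library, at 50.3 and 43.1 in the breast cancer line and at 53.5 and 51.9 in the melanoma line, and CDK13 stayed last.

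**Figure D4:**
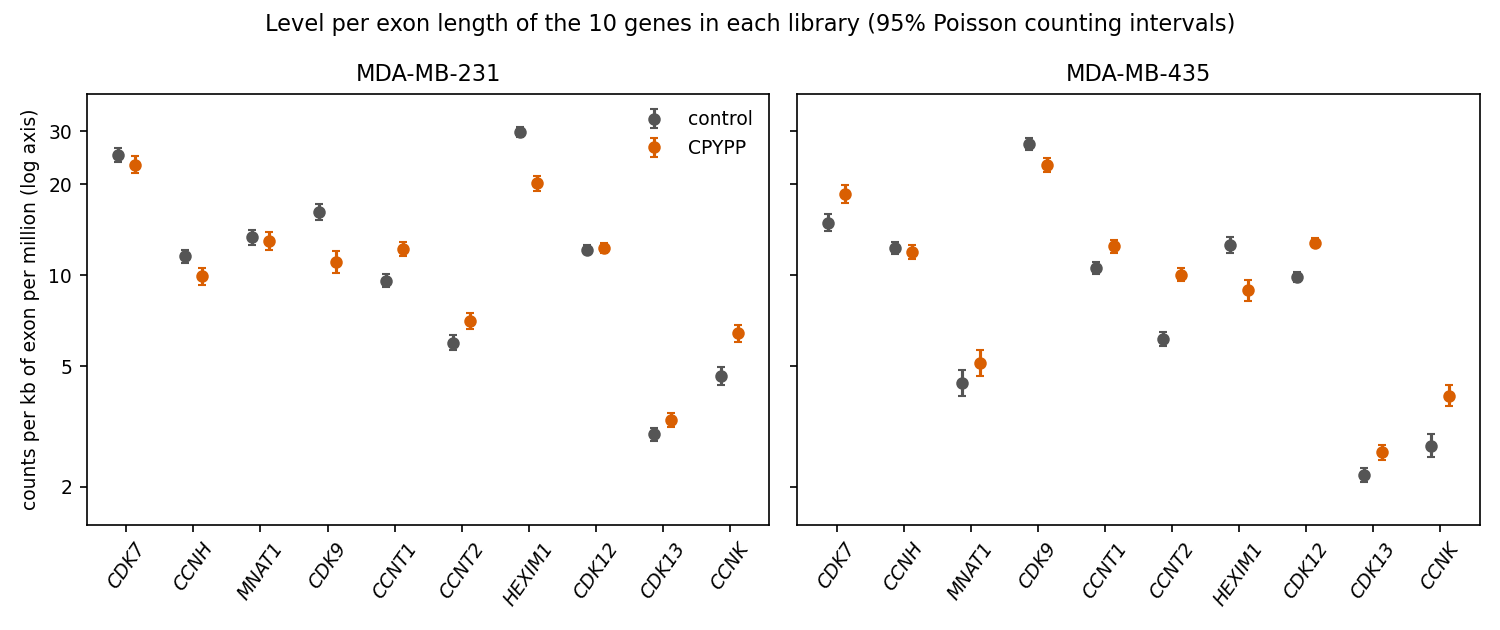
Level per exon length (vertical log axis, CPM per kilobase scaled over the 4 libraries) of the 10 genes in the control (grey) and CPYPP (orange) library of each line, with 95% Poisson counting intervals. HEXIM1 is at 29.8 and 20.2 in MDA-MB-231 and at 12.6 and 8.92 in MDA-MB-435, and CDK9 leads in both MDA-MB-435 libraries.

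Among all tested genes the members sat away from the extremes. In the breast cancer line, 12.5% of genes had a lower log2 fold change than HEXIM1 and 13.4% a lower one than CDK9, and in the melanoma line these values were 23.9% and 38.3%. At the other end, 93.7% of genes lay below CCNT2 and 90.3% below CCNK in the melanoma line. The genes whose pattern over the 4 libraries was nearest to a member, by Euclidean distance of centred log2 CPM among 9304 genes with at least 100 counts in each library, were TOP2A, MEST and CEP43 for HEXIM1 (distances 0.070 to 0.10). For CDK9 they were ZNF449, GALK1 and RMND1 (0.061 to 0.083). With 4 libraries such nearness is a description, and the distance follows the line as well as the treatment.

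The wider machinery was followed in 11 lists with 81 genes. Over all of them, 8 were called higher and 2 lower at 1.5-fold in the breast cancer line among 81 tested, and 7 higher and 3 lower in the melanoma line among 78. Over all genes tested, 8.55% were called higher and 6.66% lower in the breast cancer line and 8.3% and 11.4% in the melanoma line. The common fit called 6 higher and 1 lower of 81, beside 4.39% and 2.85% of all genes. The lists differed in where these genes sat.

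The super elongation complex, which carries P-TEFb to genes, held 3 of the 9 genes called higher at 1.5-fold in each line, beside 8.55% of all genes in the breast cancer line and 8.3% in the melanoma line, with 0 called lower beside 6.66% and 11.4%. Its median log2 fold change was 0.39 in the breast cancer line and 0.38 in the melanoma line. The scaffold AFF1 went from 2337 to 2977 counts in the breast cancer line and from 1318 to 1937 in the melanoma line, and it rose 1.74-fold (1.65 to 1.84) and 1.90-fold (1.77 to 2.03). The ELL-associated factor EAF1 rose 1.85-fold (1.71 to 2.01) and 1.73-fold (1.56 to 1.93). EAF2 went from 35 to 89 counts in the melanoma line, where it rose 3.28-fold (2.19 to 5.00), but stood at 12 and 8 in the breast cancer line. MLLT1 had the lowest mean over the lines, at fold changes of 0.820 (0.757 to 0.888) and 0.733 (0.692 to 0.777). MLLT3, named after its values were seen, was lower in the breast cancer line (log2 fold change -0.32 against -0.29). In the melanoma line total counts shift log2 values by -0.15, which takes MLLT1 (-0.45) past 1.5-fold lower. The 0 called lower there thus rests on the scaling. In the common fit AFF1 rose by 0.82 on the log2 scale (SE 0.11, adjusted p = 0.0021, edgeR quasi-likelihood test) and EAF1 by 0.80 (SE 0.13, adjusted p = 0.00607, edgeR quasi-likelihood test). The other of the 3 genes that this fit called in the list, AFF4 (adjusted p = 0.0115, edgeR quasi-likelihood test), is named after its values were seen.

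The Mediator kinase module, in which CDK8 or CDK19 pairs with cyclin C, had a log2 fold change above 0 for 7 of 7 genes in the breast cancer line and 6 of 6 tested in the melanoma line, with medians of 0.49 and 0.51. Among all genes 8025 of 16441 and 8039 of 16527 were above 0. In the melanoma line CDK19 (log2 fold change 0.05) and MED12 (0.06) had counting intervals that included no change. Total counts shift the values of that line by -0.15 and upper-quartile scaling by -0.11, so the sign of these 2 genes rests on the scaling. Of the module's genes, 3 of 7 and 2 of 6 were called higher at 1.5-fold, beside 8.55% and 8.3% of all genes. None was called lower, beside 6.66% and 11.4%. Cyclin C (CCNC), named after its values were seen, was called in the melanoma line at a fold change of 1.55 (1.45 to 1.67). Either of the shifts above takes it under 1.5-fold, so that call rests on the scaling. MED13, the subunit that joins the module to Mediator, went from 3345 to 5114 counts in the breast cancer line and from 2601 to 3980 in the melanoma line. It rose 2.09-fold (2.0 to 2.18) and 1.97-fold (1.88 to 2.07), and by 0.98 on the log2 scale in the common fit (SE 0.11, adjusted p = 0.000722, edgeR quasi-likelihood test). MED12L went from 41 to 101 counts in the breast cancer line, a rise of 3.36-fold (2.32 to 4.96), and was at 2 and 0 counts in the melanoma line. MED12, its paralog, had fold changes of 1.35 (1.19 to 1.52) and 1.04 (0.970 to 1.11).

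Among 6 CTD phosphatases, which remove the marks that these kinases place, CTDSP1 fell in both lines, from 845 to 256 counts in the breast cancer line and from 2079 to 706 in the melanoma line. Its fold changes were 0.413 (0.358 to 0.476) and 0.438 (0.401 to 0.477), and the common log2 fold change was -1.27 (SE 0.14, adjusted p = 0.000626, edgeR quasi-likelihood test). RPAP2 rose 1.77-fold (1.62 to 1.93) in the breast cancer line and had a fold change of 1.32 (1.12 to 1.55) in the melanoma line. The common log2 fold change of RPAP2 was 0.59 (SE 0.16, adjusted p = 0.0567, edgeR quasi-likelihood test).

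**Figure D5:**
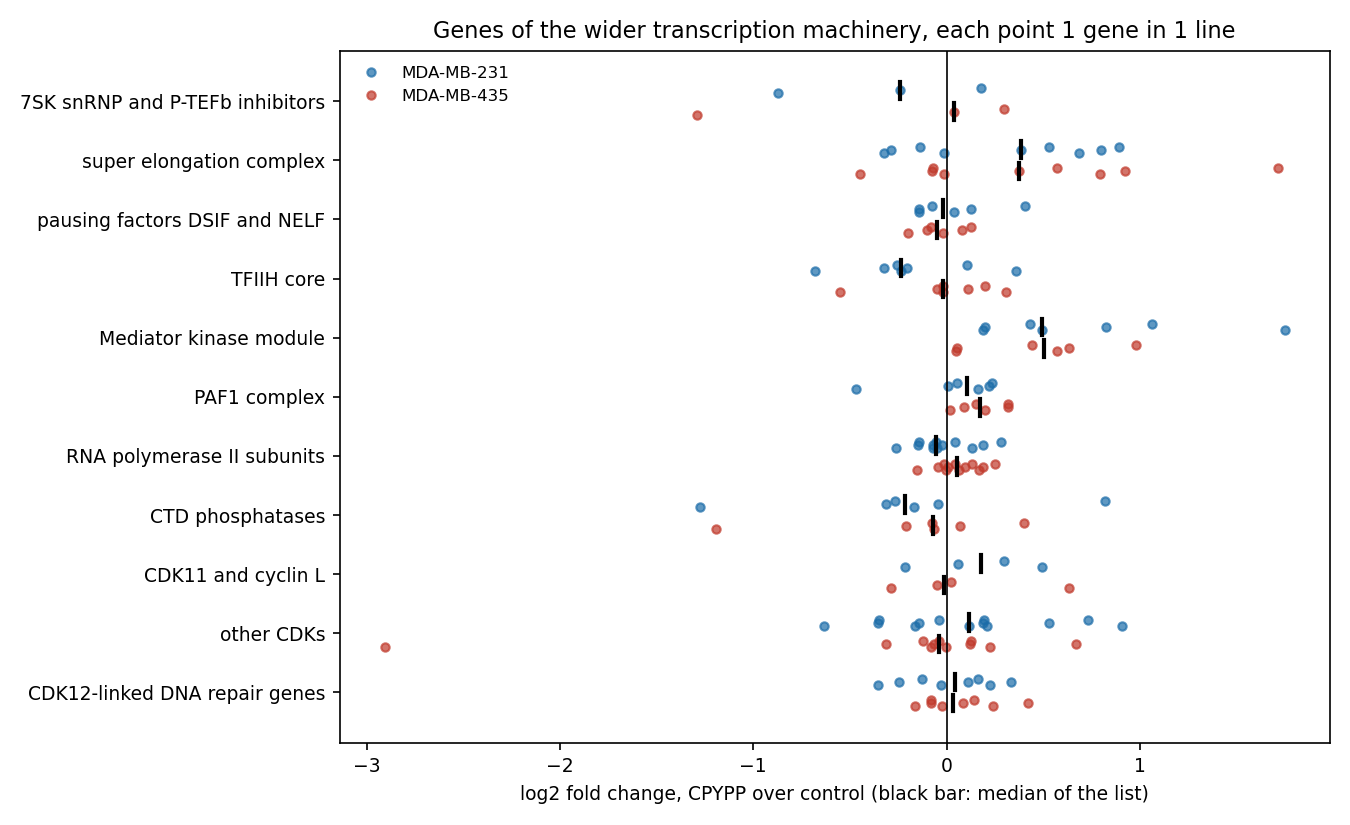
Log2 fold change, CPYPP over control (horizontal axis), of each tested gene of 11 lists in MDA-MB-231 (blue) and MDA-MB-435 (red), with the median of each list as a black bar. The Mediator kinase module (medians 0.49 and 0.51) and the super elongation complex (0.39 and 0.38) have their medians right of 0 in both lines, and the RNA polymerase II subunits spread closely around 0.

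The lists of the polymerase subunits, of the pausing factors DSIF and NELF, of the PAF1 complex and of the TFIIH core held no gene called at 1.5-fold in either line. Among all genes 8.55% were called higher and 6.66% lower in the breast cancer line, and 8.3% and 11.4% in the melanoma line. The 12 RNA polymerase II subunits ranged from -0.26 to 0.28 on the log2 scale in the breast cancer line and from -0.15 to 0.25 in the melanoma line, with POLR2C the highest in its mean over the lines at fold changes of 1.22 (1.13 to 1.31) and 1.19 (1.15 to 1.23) and POLR2H the lowest at 0.835 (0.753 to 0.925) and 0.997 (0.940 to 1.06). The 6 DSIF and NELF genes had medians of -0.02 and -0.05, with SUPT4H1 at 1.33 (1.07 to 1.64) and 1.06 (0.922 to 1.21) and NELFB at 0.906 (0.834 to 0.984) and 0.870 (0.811 to 0.933). The 6 genes of the PAF1 complex had medians of 0.11 and 0.17, and LEO1 and RTF1, the lowest and the highest in mean, had fold changes of 0.724 (0.649 to 0.807) and 1.17 (1.10 to 1.25) in the breast cancer line. In the melanoma line LEO1 was at 1.06 (0.979 to 1.15) and RTF1 at 1.25 (1.16 to 1.34). The 7 other TFIIH genes, which hold the CDK-activating kinase, had medians of -0.23 and -0.02. Among them GTF2H1 was at 1.28 (1.21 to 1.36) and 1.24 (1.17 to 1.31), and the helicase ERCC2 at 0.837 (0.777 to 0.901) and 0.681 (0.631 to 0.736). The shift of melanoma values with total counts (-0.15 on the log2 scale) or upper-quartile scaling (-0.11) takes ERCC2 (-0.55) past 1.5-fold lower. The absence of an ERCC2 call in that line thus rests on the scaling.

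The remaining kinases showed single genes past the limit. Cyclin L1 (CCNL1), a partner of CDK11, rose 1.55-fold (1.48 to 1.62) in the melanoma line and stood at 1.23 (1.13 to 1.34) in the breast cancer line, while CCNL2 was at 0.965 (0.901 to 1.03) and 0.863 (0.798 to 0.933). Of 13 other CDKs, CDK17 rose in both lines, 1.66-fold (1.56 to 1.77) in the breast cancer line and 1.59-fold (1.44 to 1.75) in the melanoma line, with a common log2 fold change of 0.66 (SE 0.12, adjusted p = 0.00969, edgeR quasi-likelihood test). CDK15 fell from 214 to 101 counts in the breast cancer line, a fold change of 0.644 (0.503 to 0.820), and from 29 counts to 1 in the melanoma line (counting interval of the fold change 0.0011 to 0.268). The 8 DNA repair genes known for their dependence on CDK12 had medians of 0.04 and 0.03 and 0 genes past 1.5-fold in either line. The shares of all genes called were 8.55% higher and 6.66% lower in the breast cancer line and 8.3% and 11.4% in the melanoma line. In that list BRCA2 had the highest mean value, at 1.26 (1.17 to 1.36) and 1.18 (1.11 to 1.26), and FANCD2 the lowest, at 0.917 (0.839 to 1.00) and 0.947 (0.875 to 1.02).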

How the data were processed

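Messenger RNA from 2 cell lines, MDA-MB-231 and MDA-MB-435, each as control and with CPYPP, was sequenced as 4 libraries. The authors deposited whole-number read counts per gene, not normalized, with gene positions and exon lengths. Their processing notes name cutadapt 1.9.1, HISAT2 2.2.1, HTSeq 0.6.1, DESeq2 and the build GRCh37.p13. The strand setting is not given in the sources used here. Of 58254 gene identifiers shared with GENCODE v29, 58241 had positions overlapping its GRCh38 positions, so positions are given as GRCh38. The protocol notes speak of MDA-MB-435 throughout, so a sample's line was read from its own title and cell line tag.

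Within a line, genes reaching 10 counts in either library were scaled by TMM and compared by edgeR's exact binomial test with Benjamini-Hochberg adjustment over all of them (edgeR 4.0.16, R 4.3.3). Fold changes carry 95% Clopper-Pearson intervals, and ratios between lines carry 95% Wald intervals with no test. The intervals cover counting error only. They treat reads as independent molecules, which PCR reads are not, so they can be too narrow even for that error. The common effect used edgeR's quasi-likelihood test after filterByExpr and TMM, with a term for the line and 1 residual degree of freedom. DESeq2 1.42.0 was an alternative. Promoter windows were RefSeq's (GRCh38.p14), searched in Python 3.11.15. The calculations were tested on simulated data.

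Besides the 10 members, the genes named from the lists were those past 1.5-fold in the same direction in both lines, those past 2-fold in either line, and the gene with the highest and the lowest mean log2 fold change of each list. Genes overlapping a member, rows sharing its symbol and the 3 nearest genes of HEXIM1 and CDK9 were also taken up. Some results on list genes and nearest genes are not reported here. The members, the lists and the 38 other settings were chosen with earlier results of these data known, and 4 settings were added after the data were seen.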

Additional observations from a re-analysis of the deposited data

Results flagged for a closer look

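The 3 subunits of the CDK-activating kinase were below the control in the CPYPP library of MDA-MB-231 and above it in that of MDA-MB-435, and the difference between the lines was not tested because each condition had 1 library. The log2 fold change in MDA-MB-435 exceeded that in MDA-MB-231 by 0.48 for CDK7 (95% counting interval 0.30 to 0.66). The gap was 0.24 for CCNH (0.09 to 0.40), whose value in MDA-MB-435 changed sign under 3 other scalings. For MNAT1 it was 0.33 (0.09 to 0.57). Only 1 of the 2 values in each gene had a counting interval that left out a fold change of 1, namely that in MDA-MB-435 for CDK7 and MNAT1 and that in MDA-MB-231 for CCNH. The other 7 members had the same sign in both lines, CDK12 only under some scalings. A gap in the same direction was not particular to these subunits. It was larger in CCNT2 (0.54), CDK12 (0.43) and CDK9 (0.38) than in MNAT1, and below 0 only in CCNT1 (-0.04).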

How the results depend on the processing

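HEXIM1 and CDK9 were lower, and CCNT1, CCNT2, CDK13 and CCNK higher, with CPYPP in both lines under every scaling tried. Total counts moved the median log2 fold change of all genes by -0.07 (MDA-MB-231) and -0.15 (MDA-MB-435), and upper-quartile scaling by -0.05 and -0.11. The share of higher genes among those past 1.5-fold in MDA-MB-231 went from 56.2% to 45.5% with total counts and to 48.6% with the upper quartile. In MDA-MB-435 it went from 42.2% to 23.5% and to 27.3%. Members called lower in MDA-MB-231 became 2 (HEXIM1 and CDK9) with total counts or the upper quartile and 1 (HEXIM1) without a filter or with TMM over all 4 libraries. Members called higher in MDA-MB-435 became 1 (CCNT2) with total counts, the upper quartile or TMM over all 4 libraries, and 0 at an assumed biological coefficient of variation of 0.2 or 0.4. At 0.4 the control comparison also gave 0 members. At 0.1, CCNT2 and CCNK in MDA-MB-435 were the only members under an adjusted p of 0.05 within a line by edgeR's exact test. The members' median in MDA-MB-435 was 0.17 with total counts and 0.21 with the upper quartile. CDK12 in MDA-MB-231 changed sign to -0.044, -0.022 and -0.0079, and CCNH in MDA-MB-435 to -0.116, -0.078 and -0.017, with total counts, the upper quartile and TMM over all 4 libraries. In the common fit, total counts gave 2 members lower (HEXIM1 and CDK9, adjusted p = 0.0334 for CDK9, against 0.0894 to 1.00 in the other settings of the edgeR quasi-likelihood test or DESeq2). DESeq2 size factors within edgeR gave 1 higher (CCNK), and 2 higher (CCNT2 and CCNK) were called without a filter or with at least 10 counts in every library. Without the line term 0 members were called. Genes called over the whole table in the common fit numbered 737 higher and 478 lower, 575 and 291 by DESeq2, 843 and 1087 with total counts, 916 and 640 with DESeq2 size factors, 1046 and 850 without a filter, 1018 and 770 with at least 10 counts in every library, and 0 without the line term, where 167 had an unadjusted p under 0.05 in edgeR. The causes were not tested. With 1 library per condition no library could be left out, and at the members' depth of 386 to 3325 counts the spread between cultures is unknown.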
